A study of Mus musculus with 4 samples.

Results

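This account covers 10 genes that control passage through G1 and entry into S phase, the phase in which DNA is copied. They are the D-type cyclins Ccnd1, Ccnd2 and Ccnd3, their kinases Cdk4 and Cdk6, the E-type cyclins Ccne1 and Ccne2 with their kinase Cdk2, and the inhibitors Cdkn1b and Cdkn2c. The genes were chosen by symbol, and all 10 were found among the 16442 genes of the deposited table. Poly(A) RNA was sequenced from leukaemia stem cells, the bone marrow cells of a mouse leukaemia that can regrow the disease. The 2 KO libraries came from C57BL/6 mice with a knockout of Rreb1, a zinc-finger transcription factor, and the 2 WT libraries from wild-type mice of the same strain, all with leukaemia. The labels used here do not say how the leukaemia was started, whether a library stands for 1 mouse or a pool, or which part of Rreb1 was removed. One KO library carries the genotype label Rreb2-KO, and the libraries were grouped by their titles. P-values below measure the spread between these libraries.

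A cell that receives growth signals makes D-type cyclins, which bind CDK4 or CDK6. These kinases begin to phosphorylate the retinoblastoma protein, which holds the E2F transcription factors in check. Freed E2F factors switch on the E-type cyclins, which bind CDK2 and complete that phosphorylation. Inhibitors of the INK4 family, such as p18 encoded by Cdkn2c, bind CDK4 and CDK6 alone, whereas inhibitors of the CIP/KIP family, such as p27 encoded by Cdkn1b, bind cyclin-CDK complexes and hold CDK2 inactive. Blood cells rely on CDK6 and cyclin D3 to a large degree, and p27 accumulates as myeloid cells stop dividing and mature. Much of the control of these proteins is by synthesis, degradation and phosphorylation, which mRNA levels do not show.

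Levels are in FPKM, a count of sequenced fragments corrected for exonic length and library depth, after removal of the 1 that the authors' table adds to every value. Depth was 17037493 to 18420465 assigned reads in the KO libraries and 16590830 to 18451252 in the WT libraries. The targeted gene Rreb1 stood at 6.10 and 6.93 FPKM in the KO libraries, against 5.24 and 6.57 FPKM in the WT libraries, with a log2 fold change of 0.13 (limma adjusted p = 0.616). Its level over all exons therefore leaves the genotype labels unchecked, and KO and WT stand for the libraries labelled so. Progenitor genes were present, with Kit at 7.36 and 7.15 FPKM in KO and 3.65 and 4.25 in WT, and Cd34 at 50.5 and 49.8 in KO and 68.3 and 71.5 in WT. By limma 0 of the 9 progenitor markers listed were called, while limma-voom called 1 higher (Kit, adjusted p = 0.000611 against 0.0512 by limma) and 3 lower (Cd34, Flt3 and Gata2). By limma, markers of some other marrow cells fell in part: 4 of 11 tested for macrophages, 3 of 5 for B cells and 2 of 4 for basophils and mast cells, with 0 of 6 for T and NK cells and no rise in these lists. In 2 lists taken up below, 8 of 12 neutrophil and 5 of 8 erythroid markers tested rose, and 0 fell. Among all tested genes limma called 0.603% higher and 0.408% lower, and limma-voom 4.41% and 2.99%. In whole-population libraries, a change in the number of cells of 1 type and a change of RNA per cell cannot be told apart.

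The promoters of the pair of genes with the smallest p-values, Cdk4 and Cdkn1b, are printed first to show the letters before each start. Each runs from 250 bases before to 50 bases after the start of the gene (RefSeq, GRCm38.p6, plus strand). Cdk4 lies at chr10:127063285-127063584 and Cdkn1b at chr6:134920151-134920450. Capitals mark CACGTG, the E-box read by MYC and its partner MAX, in Cdk4, and CCAAT, the box read by NF-Y, or its complement in Cdkn1b.
Cdk4: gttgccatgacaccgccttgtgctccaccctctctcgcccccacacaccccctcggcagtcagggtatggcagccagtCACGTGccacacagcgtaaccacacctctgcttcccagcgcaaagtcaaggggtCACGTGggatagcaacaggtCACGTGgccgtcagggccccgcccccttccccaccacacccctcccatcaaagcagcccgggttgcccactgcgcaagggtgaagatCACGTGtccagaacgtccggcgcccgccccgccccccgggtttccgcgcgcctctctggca
Cdkn1b: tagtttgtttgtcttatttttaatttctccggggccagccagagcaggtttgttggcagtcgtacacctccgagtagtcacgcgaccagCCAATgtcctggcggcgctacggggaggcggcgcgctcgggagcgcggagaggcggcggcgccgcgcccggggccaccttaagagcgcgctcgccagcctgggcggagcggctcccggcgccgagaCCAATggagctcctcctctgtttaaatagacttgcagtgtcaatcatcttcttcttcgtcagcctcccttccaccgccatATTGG

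The Cdk4 promoter held CACGTG at 4 places, beginning 172, 118, 98 and 11 bases before the start. At least 1 CACGTG stood in 7.15% of the 32851 promoters of the table, and 4 or more in 0.0244% of them. The Cdkn1b promoter held none, and held CCAAT at 3 places, 161 and 35 bases before and 45 bases after the start. CCAAT is common and stood in 37.4% of promoters. Of the 10 genes, 7 had an entry: Cdk4, Cdkn1b, Ccnd3, Ccne1, Cdk2, Cdk6 and Cdkn2c. CACGTG also stood in the promoters of Cdk6, 220 bases before the start, and of Cdkn2c, 34 bases after 1 of its 2 starts. CCAAT stood in that of Cdk2, and in those of Ccnd3 and Cdkn2c at only 1 of the 2 starts of each. The E2F letters TTGGCGC or TTCCCGC, found in 6.81% of promoters, were in those of Cdk2, 140 and 10 bases before the start, and of Cdkn2c, 25 bases before 1 of its 2 starts. The letters CCACCCC, part of the C-rich motif listed for RREB1, were found in 15.1% of promoters. They were in those of Ccne1 and Cdk2, and in that of Cdkn2c at 1 of its 2 starts. All motifs were searched on both strands, no site in these genes overlapped a site of another motif, and a match is a run of letters and not a shown binding site.

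**Figure D1:**
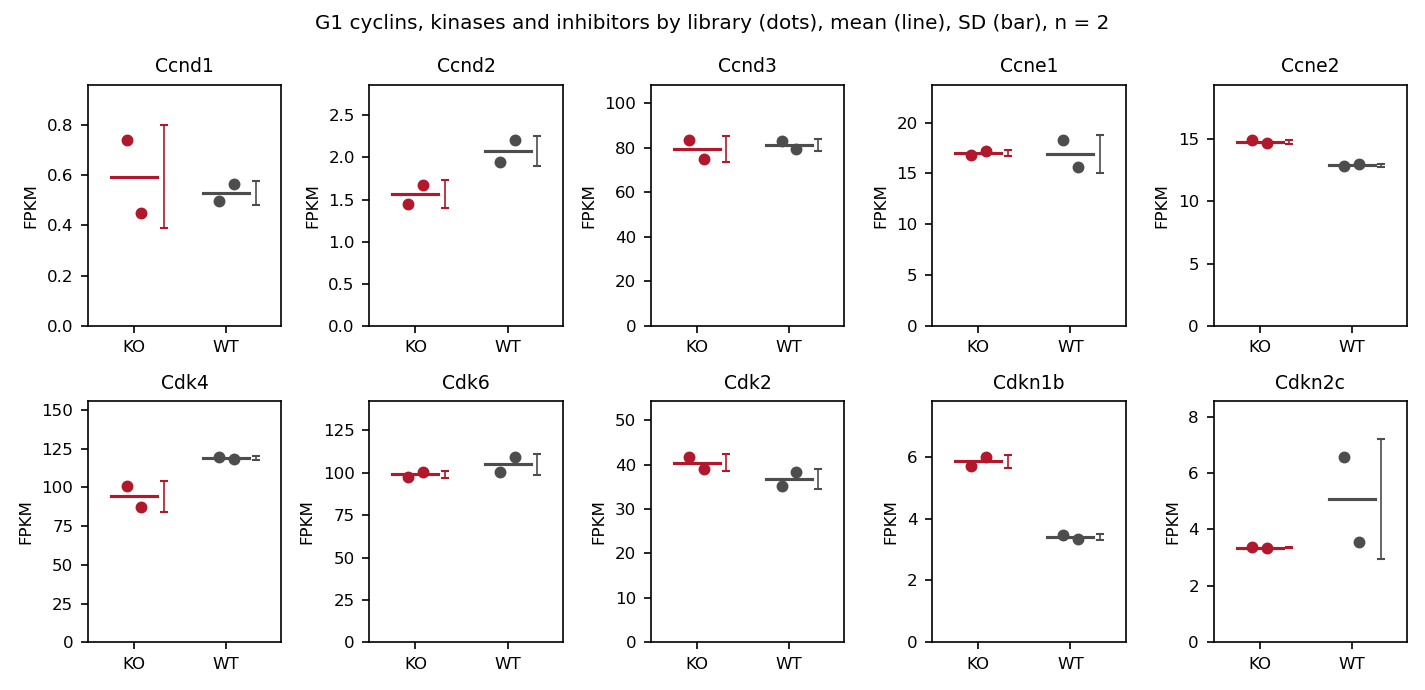
FPKM of the 10 genes in each library (dots), with the group mean (line) and SD (bar, n = 2), KO in red and WT in grey; each panel has its own axis from 0. Cdkn1b sits at 5.70 and 6.00 FPKM in KO, above 3.46 and 3.34 in WT, and Cdk4 at 101 and 87.2 in KO, below 120 and 118 in WT.

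By level, Cdk4 and Cdk6 led the set, with means over the 4 libraries of 107 and 102 FPKM, and their ranges overlapped. Ccnd3 followed at 80.2 FPKM, then Cdk2 at 38.6, Ccne1 at 17.0 and Ccne2 at 13.8, each above the next in every library. Cdkn1b at 4.62 and Cdkn2c at 4.22 overlapped, and Ccnd2 at 1.82 and Ccnd1 at 0.561 stood last. By mean level, Cdk4 lay above 96.5% of the genes in the table and Ccnd1 above 18.1% of them.

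Between KO and WT, 0 of the 9 genes tested passed the threshold in either direction (limma, Benjamini-Hochberg adjusted p below 0.05 over 11768 genes), where 0.603% of all tested genes were called higher and 0.408% lower in KO. Ccnd1, with a mean under 1 FPKM, was not tested. The genes nearest to a call were Cdkn1b, which was higher in KO, and Cdk4, which was lower. These were also the only 2 of the 9 with an unadjusted p below 0.05, 1 in each direction, against 11.4% of all tested genes higher and 9.35% lower. The median log2 fold change of the 9 was −0.03, and that of all tested genes was 0.03. With limma-voom on recovered reads, which called 4.41% of genes higher and 2.99% lower, Cdkn1b was called higher and 0 of the 9 were called lower. The KO and WT libraries did not overlap for 6 of the 9, with 3 higher and 3 lower, against 55.3% of all tested genes, 30.5% higher and 24.9% lower.

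**Figure D2:**
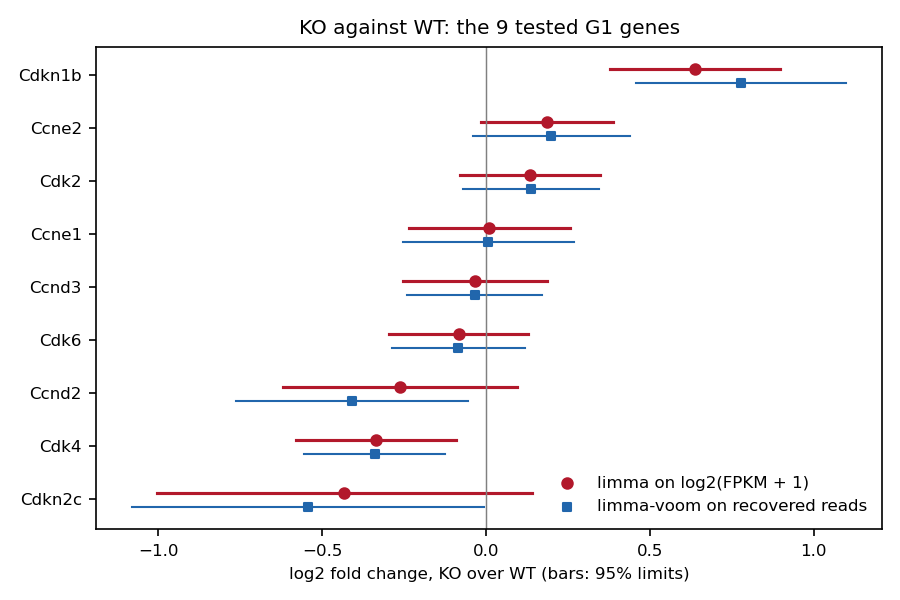
Log2 fold change of KO over WT for the 9 tested genes (horizontal axis), with 95% limits, from limma on log2(FPKM + 1) (circles) and limma-voom on recovered reads (squares). The limits of Cdkn1b (0.38 to 0.90) and Cdk4 (−0.58 to −0.09) leave out 0 in the first fit, before adjustment over all genes.

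The D-type cyclin transcripts were almost wholly Ccnd3. Ccnd3 (chromosome 17, 47505051 to 47599691, plus strand, GRCm38) encodes cyclin D3, the D cyclin that dividing lymphoid and erythroid precursors depend on. It was at 83.4 and 75.1 FPKM in KO, against 82.9 and 79.3 in WT. The groups overlapped, with a log2 fold change of −0.03 (limma adjusted p = 0.850, 95% limits −0.25 to 0.19). Of the summed FPKM of the 3 D cyclins, Ccnd3 made up 97.4% and 97.2% in KO and 97.1% and 96.6% in WT.

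Ccnd2 (chromosome 6, 127125162 to 127152193, minus strand), the D cyclin that many cytokine and growth factor signals induce, was at 1.45 and 1.68 FPKM in KO, against 1.95 and 2.20 in WT. Both KO values were under both WT values, from 251 and 269 reads in KO against 338 and 344 in WT. The log2 fold change on the log2(FPKM + 1) scale, which understates changes at such low levels, was −0.26 (SE 0.15, limma adjusted p = 0.350), and −0.41 by limma-voom (adjusted p = 0.143). Its share of D cyclin FPKM was 1.69% and 2.17% in KO and 2.28% and 2.69% in WT.

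Ccnd1 (chromosome 7, 144929931 to 144939925, minus strand), the cyclin most often driven by RAS and MAP kinase signals in solid tissues, was barely present. It was at 0.738 and 0.449 FPKM in KO, against 0.495 and 0.563 in WT, from 64 and 36 reads in KO and 43 and 44 in WT. The WT values lay between the KO values, and the exact Poisson 95% intervals, which cover counting error only, ran from 0.314 to 0.942 FPKM over the KO libraries and from 0.358 to 0.756 over the WT libraries. Without the filter on level its log2 fold change was 0.05 (limma adjusted p = 0.878). Of its exonic bases 23.4% are shared with LTO1 on the opposite strand, a gene at 5.72 and 5.77 FPKM in KO and 5.37 and 5.38 in WT. The labels do not describe a kit that marks strand, so reads from the shared stretch cannot be told apart.

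Both kinases of the D cyclins were abundant, and neither passed the test. Cdk4 (chromosome 10, 127063534 to 127067920, plus strand) was at 101 and 87.2 FPKM in KO, against 120 and 118 in WT. Both KO values were under both WT values, and the KO pair was farther apart than the WT pair. The mean in KO was 0.793 of that in WT, a log2 fold change of −0.34 (SE 0.10, 95% limits −0.58 to −0.09), which did not pass after adjustment (limma adjusted p = 0.161; 0.0536 by limma-voom). It was −0.23 without KO replicate 2 and −0.44 without KO replicate 1.

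Cdk4 shares 641 exonic bases, 19.7% of its length, with Tspan31, a tetraspanin gene on the opposite strand. Tspan31 was at 21.1 and 18.2 FPKM in KO, against 32.1 and 32.8 in WT, and fell in KO (log2 fold change −0.70, limma adjusted p = 0.0454). Both genes were lower in KO, and without strand the reads of the shared stretch cannot be assigned to one or the other. The Tspan31 call held by limma-voom (adjusted p = 0.00211) and ended with each of the 4 libraries left out in turn (limma adjusted p from 0.0568 to 0.210, log2 fold change from −0.80 to −0.60), with the replicate block (0.0724) and without the filter on level (0.0932). Neither the part of Tspan31 in the Cdk4 value nor the part of Cdk4 in the Tspan31 value and call was tested. Tspan31 was named after its values were seen, and its alternatives were added then.

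Cdk6 (chromosome 5, 3341485 to 3531008, plus strand), the D cyclin kinase that also acts as a transcriptional cofactor in leukaemia, was at 97.3 and 100.6 FPKM in KO, against 100.5 and 109 in WT. The groups overlapped by a narrow margin (log2 fold change −0.08, 95% limits −0.30 to 0.13, limma adjusted p = 0.615). The value was −0.14 without WT replicate 1 and −0.02 without WT replicate 2. Cdk4 over Cdk6, a ratio of levels per length, was 1.04 and 0.868 in KO and 1.19 and 1.08 in WT. The KO ratios lay below the WT ratios. With 2 libraries against 2, an exact two-sided permutation test cannot give a p below 0.33, so no test of this or the other ratios was made.

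Neither E-type cyclin nor their kinase passed the test. Ccne1 (chromosome 7, 38097984 to 38107534, minus strand), cyclin E1, was at 16.8 and 17.2 FPKM in KO, against 18.3 and 15.6 in WT. The KO values lay between the WT values, with a log2 fold change of 0.01 (95% limits −0.24 to 0.26, limma adjusted p = 0.962). Its sign turned with the scaling, to −0.01 with libraries rescaled by the median of ratios.

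Ccne2 (chromosome 4, 11191351 to 11204779, plus strand), cyclin E2, was at 14.9 and 14.7 FPKM in KO, against 12.8 and 13.0 in WT. Replicates were close and the groups did not overlap, with a log2 fold change of 0.19 (SE 0.083, limma adjusted p = 0.267). Its exons share 17.4% of their bases with Ints8 on the opposite strand, which was at 1.32 and 1.76 FPKM in KO and 0.914 and 1.04 in WT. Ccne2 over Ccne1 was 0.886 and 0.852 in KO and 0.701 and 0.830 in WT.

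Cdk2 (chromosome 10, 128697939 to 128705031, minus strand), the kinase of cyclins E and A, was at 41.8 and 39.1 FPKM in KO, against 35.2 and 38.3 in WT. The KO libraries lay just above the WT libraries, with a log2 fold change of 0.13 (95% limits −0.08 to 0.35, limma adjusted p = 0.419). The value was 0.07 without WT replicate 1 and 0.09 without KO replicate 1. Its overlap with Pmel on the opposite strand is 34 bases. In all, 7 of the 10 genes share exonic bases with a gene on the other strand, and Ccne1, Cdkn1b and Cdkn2c share none.

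Of the inhibitors, Cdkn1b was higher and Cdkn2c lower in KO, and neither passed the limma test. Cdkn1b (chromosome 6, 134920401 to 134925513, plus strand), which encodes p27, was at 5.70 and 6.00 FPKM in KO, against 3.46 and 3.34 in WT. The replicates of each group were close and the groups were far apart, from 478 and 465 reads in KO against 291 and 252 in WT. The mean in KO was 1.72 times that in WT. The exact Poisson 95% intervals were 5.20 to 6.24 and 5.46 to 6.57 FPKM in KO, above 3.08 to 3.89 and 2.94 to 3.78 in WT. These intervals cover counting error only and not the spread between libraries. The log2 fold change on the log2(FPKM + 1) scale was 0.64 (SE 0.11, 95% limits 0.38 to 0.90), with a limma adjusted p = 0.0650, just short of the threshold. Among the 11768 tested genes its p-value ranked 166. By limma-voom on recovered reads it was 0.78 (SE 0.15) with an adjusted p = 0.00737. Over all 9 alternatives the value ran from 0.61 to 0.78 and the adjusted p from 0.00737 to 0.332.

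Most genes of a list of neutrophil markers were higher in the same libraries as Cdkn1b. The list was drawn up for mature cells, but its members did not all move together, and the stage of the cells was not tested. The list was chosen with earlier results of these data known. All 12 were tested, and by limma 8 rose and 0 fell, against 0.603% and 0.408% of all tested genes. The 4 that did not pass were Cd177, which was higher in KO, and Ltf, Mmp8 and Cxcr2. Cxcr2 was at 1.99 and 1.91 FPKM in KO, against 2.08 and 2.27 in WT. For Ltf and Mmp8 the KO and WT libraries overlapped. The median log2 fold change of the 12 was 1.08. Their summed level was 3010 and 3590 FPKM in KO, against 1321 and 1335 in WT, and none was at 0. S100a8 alone gave 1173 and 1506 of it in KO and 560 and 584 in WT. With no filter on level 4 of the 12 rose. Leaving out 1 library gave 1 rise where either WT library was dropped, and 3 where KO replicate 2 was. Their part in the Cdkn1b value was not tested.

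Cdkn2c (chromosome 4, 109660876 to 109667189, minus strand), which encodes p18, was at 3.38 and 3.34 FPKM in KO, against 6.58 and 3.57 in WT. WT replicate 1 stood apart, with 326 reads against 159 in WT replicate 2, and its exact Poisson 95% interval of 5.88 to 7.33 FPKM did not reach the 3.03 to 4.17 FPKM of its replicate. The KO libraries lay below both WT libraries, though only narrowly below WT replicate 2. The log2 fold change of −0.43 (SE 0.23) did not pass (limma adjusted p = 0.341, 95% limits −1.01 to 0.14), and it was −0.07 without WT replicate 1 and −0.80 without WT replicate 2. Cdkn1b over Cdkn2c was 1.69 and 1.79 in KO and 0.527 and 0.935 in WT.

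Most erythroid and megakaryocyte markers other than the globins were also high in WT replicate 1. Of 11 such markers in the table, 9 had their highest value there, all but Alas2 and Itga2b. How many of all genes were highest in that library was not counted, so this count has no background beside it. The 11 summed to 26.8 and 29.1 FPKM in KO and to 48.5 and 31.5 FPKM in WT. The carbonic anhydrase gene Car1 was at 0.348 and 0.611 FPKM in KO and 13.9 and 4.88 in WT, and the erythroid factor gene Klf1 at 0.495 and 0.536 in KO and 2.23 and 0.943 in WT. Alas2, the erythroid enzyme of haem synthesis and 1 of the 11, went the other way, at 3.46 and 3.81 FPKM in KO and 0.722 and 0.727 in WT, and rose in KO (limma adjusted p = 0.0179). The 4 globin genes rose too. The full erythroid list of 12 genes, with 11 in the table, summed to 423 and 516 FPKM in KO and 110 and 90.1 in WT. By limma-voom it had 5 rises and 1 fall (Car1) among 7 tested, against 4.41% and 2.99% of all genes. By limma it had 5 rises and 0 falls among 8 tested, against 0.603% and 0.408% of all tested genes. The other 3 were lower in KO at an unadjusted limma p below 0.05, against 9.35% of all tested genes. Leaving out WT replicate 1 gave 2 rises, and leaving out either replicate 2 gave 3. The megakaryocyte list, with 4 of its 7 genes in the table, summed to 20.8 and 22.2 FPKM in KO and 26.9 and 22.9 in WT, and 0 of 2 tested were called. None of these markers was at 0 in all libraries. The subset without globins was chosen after the values were seen, and the part of these cells in the Cdkn2c value was not tested.

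**Figure D3:**
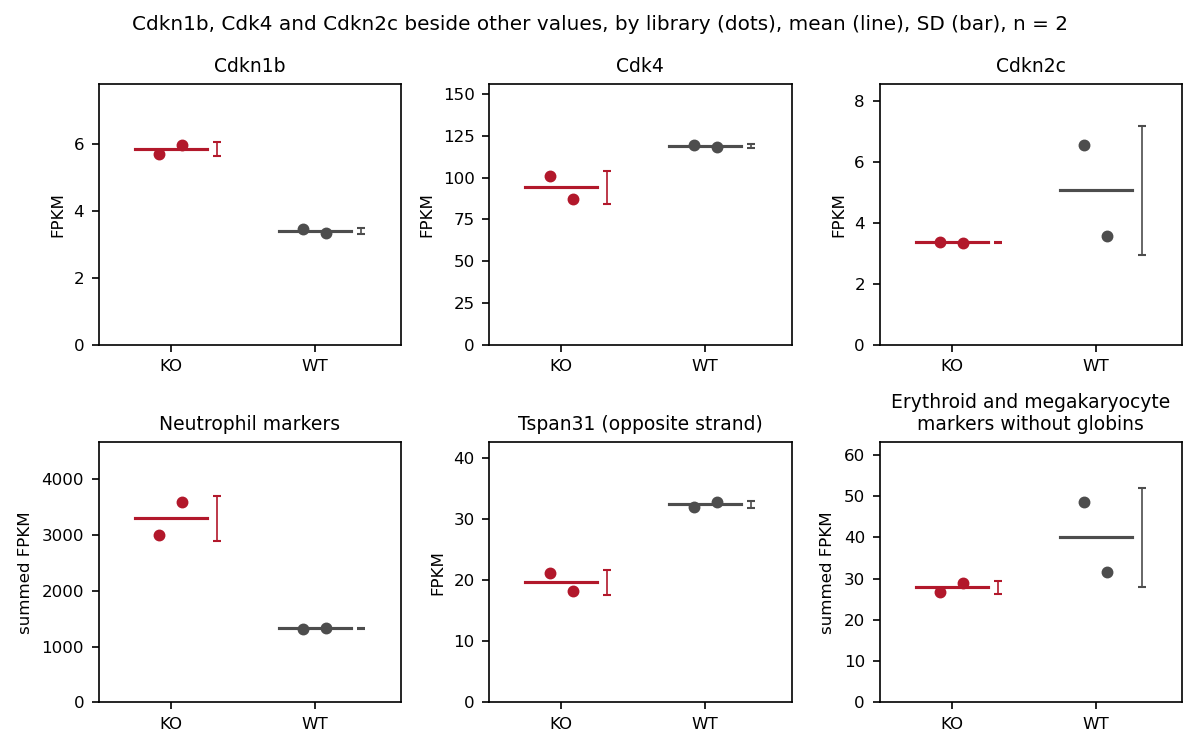
FPKM per library (dots), group mean (line) and SD (bar, n = 2) of Cdkn1b, Cdk4 and Cdkn2c (upper row), each above another value from the same libraries (lower row): summed neutrophil markers, Tspan31, and summed erythroid and megakaryocyte markers without globins. WT replicate 1, the left grey dot, is the highest for Cdkn2c (6.58 FPKM) and for the marker sum below it (48.5 FPKM). That subset was chosen after the values were seen. The full erythroid list, with the globins, went the other way, at 423 and 516 FPKM in KO and 110 and 90.1 in WT.

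The other genes of the G1 and S phase machinery gave 0 calls among 33 tested of 37 listed (limma), with a median log2 fold change of 0.00. At an unadjusted p below 0.05, 3 were higher and 2 lower, against 11.4% and 9.35% of all tested genes. Limma-voom, which called 4.41% of all genes higher, called 1 of these, the phosphatase gene Cdc25a, which removes an inhibitory phosphate from CDK2. It was at 3.54 and 3.48 FPKM in KO, against 1.93 and 2.78 in WT (log2 fold change 0.44, limma adjusted p = 0.204; 0.0415 by limma-voom).

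Among further CDK inhibitors, Cdkn2d, which encodes the INK4 protein p19, was far above Cdkn1b and Cdkn2c in level. It was at 183 and 171 FPKM in KO, against 224 and 184 in WT (limma adjusted p = 0.385). Cdkn2a, whose locus encodes p16 and the p53 activator ARF, was at 7.97 and 9.16 FPKM in KO, against 12.4 and 12.1 in WT (log2 fold change −0.47, limma adjusted p = 0.104). Cdkn1a, which encodes p21, was at 43.9 and 39.7 FPKM in KO, against 43.2 and 49.5 in WT (limma adjusted p = 0.450). The 3 tested inhibitors of this list had log2 fold changes below 0, and 0 were called by limma or limma-voom. Cdkn2b, which encodes the INK4 protein p15 and was below the level filter, was at 1.09 and 0.845 FPKM in KO, against 0.546 and 0.650 in WT. Without the filter on level it was tested and did not pass (log2 fold change 0.30, limma adjusted p = 0.345).

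None of the targets and regulators of the kinases passed limma's threshold. Of the pocket proteins that these kinases phosphorylate, Rbl1 was at 15.9 and 16.5 FPKM in KO, against 13.9 and 14.4 in WT (limma adjusted p = 0.271), and Rb1 at 3.47 and 4.37 in KO, against 3.77 and 3.60 in WT. Of 10 E2F and DP factors, 2 were higher and 1 lower at an unadjusted p below 0.05, against 11.4% and 9.35% of all tested genes. The activator E2f1 was at 14.5 and 13.8 FPKM in KO, against 11.7 and 11.6 in WT (limma adjusted p = 0.185), and the mainly repressive E2f4 at 15.6 and 17.2 in KO, against 19.7 and 20.3 in WT (limma adjusted p = 0.185). Skp2, the ubiquitin ligase subunit that marks p27 for degradation, was at 6.40 and 6.07 FPKM in KO, against 5.28 and 5.35 in WT (limma adjusted p = 0.312). Fbxw7, which marks cyclin E, was at 1.64 and 1.97 FPKM in KO, against 1.15 and 1.32 in WT (limma adjusted p = 0.288). The S phase cyclin gene Ccna2, a later partner of CDK2, was at 28.2 and 24.4 FPKM in KO, against 28.1 and 33.3 in WT (limma adjusted p = 0.344).

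Genes of DNA replication, from the licensing of origins in G1 to DNA synthesis, and of mitosis gave 0 limma calls among 35 tested. The 20 replication genes had a median log2 fold change of 0.10, with 2 higher and 0 lower at an unadjusted p below 0.05, and limma-voom called 0. The 15 mitotic genes had a median of −0.18, with 1 higher and 6 lower, and limma-voom called 1 higher and 4 lower. Among all tested genes 11.4% were higher and 9.35% lower at an unadjusted p below 0.05. Limma-voom called 4.41% of all genes higher and 2.99% lower. Of the replication genes, the helicase subunit gene Mcm4 was at 49.6 and 49.4 FPKM in KO, against 41.0 and 41.3 in WT (limma adjusted p = 0.158). Of the mitotic genes, the kinase gene Aurka was at 69.8 and 56.5 FPKM in KO, against 86.1 and 88.4 in WT (limma adjusted p = 0.126; 0.0192 by limma-voom). The proliferation marker Mki67, which was picked for its value, was at 22.9 and 32.1 FPKM in KO, against 15.9 and 18.7 in WT (limma adjusted p = 0.143; 0.0113 by limma-voom).

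**Figure D4:**
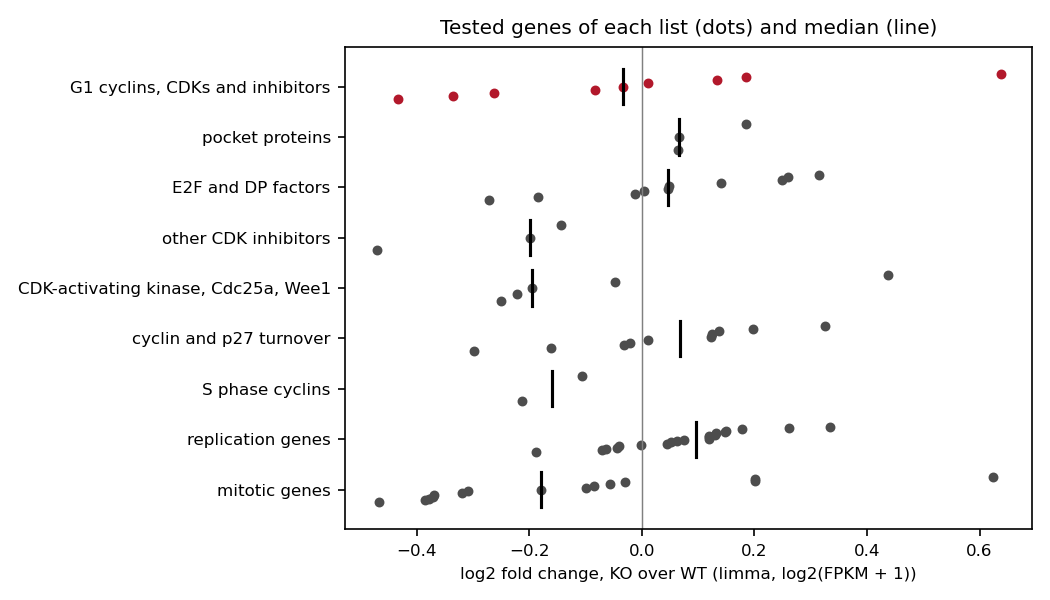
Log2 fold change of KO over WT (horizontal axis) for the tested genes of each list (dots), with the list's median (black line). Cdkn1b (0.64) is the rightmost red dot, the replication genes centre on 0.10 and the mitotic genes on −0.18.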

How the data were processed

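The table the authors deposited has 16442 genes in 4 libraries, and its unit was inferred from the values as FPKM with 1 added. The submitters' processing notes name CASAVA, HISAT2 2.1.0, featureCounts, DESeq2 and GRCm38, without roles. The 1 was subtracted. Multiplied by exonic length (GENCODE M21), values of up to 30 reads fell on whole reads within 0.05 for 99.0% to 99.2% of them, and reads were recovered in all libraries for 15776 of 16003 matched genes. These reads give depth and the limma-voom alternative, and 3 reads on 2 kb of exons are 0.0813 to 0.0904 FPKM. KO and WT were compared with limma 3.58.1 (R 4.3.3, trend) on log2(FPKM + 1) for 11768 genes (mean level 1 FPKM or more), two-sided, with Benjamini-Hochberg adjustment. On simulated reads of 11365 genes it recovered 28.4%, 80.6% and 93.9% of genes changed by folds of 1.5, 2 and 4. It also called 10 unchanged genes. The simulation gave every gene an overdispersion of 0.005. Some genes here, such as Cdkn2c in WT, varied more between replicates, so these shares need not hold for them. The genes and lists, and the rule for naming list genes (calls, and up to 3 by smallest p), were chosen with earlier results of these data known. Alternatives were a pseudocount of 0.1, no filter on level, rescaling by the median of ratios, limma-voom, a replicate block and leaving out each library.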

Additional observations from a re-analysis of the deposited data

How the results depend on the processing

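For the 9 G1 genes tested, the counts of 0 higher and 0 lower held with a pseudocount of 0.1, with rescaling and with the replicate block. Without the filter on level they held for all 10. Limma-voom gave 1 higher (Cdkn1b) and 0 lower of the 9. For the other G1 and S phase genes limma-voom gave 1 higher, and for the replication and mitotic genes 1 higher and 4 lower, against 0 otherwise. Over all genes, 71 higher and 48 lower became 22 and 10 without the filter on level (among 16206 genes with a value above 0) and 501 and 340 by limma-voom. With 1 library left out they ran from 4 to 50 higher and 2 to 14 lower, in fits with fewer samples where a lone library is assumed to vary like the other group. The log2 fold change of Ccne1 changed sign with rescaling (−0.012), without WT replicate 2 (−0.096) and without KO replicate 2 (−0.0056), and that of Ccnd3 without KO replicate 2 (0.040), and with 1 library left out they ran from −0.096 to 0.12 for Ccne1 and from −0.11 to 0.040 for Ccnd3. Whether same-numbered libraries were prepared as pairs is not known from their titles. Their deviations from the group mean had a correlation of 0.0090 over genes. With 2 libraries in a group both pairs give the same value, so it cannot settle the pairing. With the replicate block 40 genes were higher and 26 lower, with 0 of the 9 G1 genes tested, and Cdkn1b kept its value with an adjusted p = 0.0968 by limma. (Cdkn1b was 1 of these 9.) Depth limits Ccnd1, at 36 to 64 reads, most.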

Other observations

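Beyond the G1 genes and the lists above, 26 further genes with a cyclin (Ccn) or CDK symbol were in the table, a set taken by symbol after the data had been seen. Of the 25 tested, 0 were called in either direction by limma, and the median log2 fold change was 0.11. At an unadjusted p below 0.05, 6 were higher and 1 lower, against 11.4% and 9.35% of all tested genes. By limma-voom 2 were called higher, Ccno and Cdk13, where 4.41% of all genes were. Ccno, a cyclin family member known for its role in cells with many cilia, was at 1.93 and 2.07 FPKM in KO, against 0.636 and 0.519 in WT, from 91 and 90 reads in KO and 30 and 22 in WT (limma adjusted p = 0.0673; 0.0059 by limma-voom). Cdk13, a kinase that phosphorylates RNA polymerase II, was at 1.44 and 2.15 FPKM in KO, against 0.802 and 0.999 in WT (limma adjusted p = 0.194; 0.0119 by limma-voom).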
